A study of Mus musculus with 4 samples.

Results

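Genes of motile cilia, 45 in all, were examined in middle ear extracts of mice that had inhaled diesel exhaust particles (DEP) and of control mice. The genes were chosen by name, as genes whose products build or run motile cilia or mark multiciliated cells of mucosal epithelium. Of these 45 genes, 39 were matched to a probe and 6 were not: Dnah3, Dnah7b, Dnah12, Armc4, Lrrc23 and Ccdc40. The array held 32360 genes in all, of which 20967 were named. The others are accessions or probes without a gene name, each counted as a gene. The 39 genes had 57 probes, and each gene was read by its brightest probe.

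The mucosa of the middle ear and of the Eustachian tube carries multiciliated cells, whose beating cilia carry mucus toward the throat. A motile cilium is built on a ring of microtubule doublets around a central pair, and dynein arms on the doublets pull against their neighbours to bend it. Radial spokes and the nexin-dynein regulatory complex pass signals from the central apparatus to the arms. Geminin family proteins such as Mcidas, the cyclin-like protein Ccno and the transcription factors Foxj1, Rfx2 and Rfx3 switch on the genes of this machinery, and defects in many of its parts cause primary ciliary dyskinesia, in which otitis media is common.

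Both groups were male BALB/c mice aged 6 to 10 weeks. The exposed mice inhaled DEP for 1 h per day on 5 days, the control ear carried the treatment label none, and tissue was taken on day 14 from the area of the temporal bone that holds the middle ear. The study used 9 mice in all, and its text does not give how many mice contributed to an extract. Each of 4 two-colour arrays compared an extract named as a DEP ear, in the red dye Cy5, with an extract in the green dye Cy3 whose source was named as a control ear, and the arrays are numbered as in the sample labels. The labels listed both treatments under Cy5 and none under Cy3, so the source names of the channels were followed. The dyes were not swapped, so that a dye preference of a probe and an effect of exposure cannot be told apart. The 4 arrays lay on 1 slide and came from 1 scan, which leaves no batch to compare. The labels call the arrays biological replicates, and p-values here measure the spread between these 4 arrays.

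Values are log2 ratios of the DEP channel over the control channel, so that 0 is equal signal and 1 is a 2-fold difference. Between 65.4% and 68.9% of probes were well above background in the DEP channel, and between 59.2% and 68% in the control channel. No gene of 25679 tested had an adjusted p under 0.05 in limma (0% called), and 4791 genes had an unadjusted p under 0.05. The arrays did not vary alike, since the correlation of their ratios over probes ranged from -0.24 for arrays 1 and 4 to 0.61 for arrays 1 and 2. In bulk tissue, fewer multiciliated cells and less RNA per cell cannot be told apart.

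The stretch before the start of a gene is where the regulators of ciliated cells bind, and 5 such windows are shown as examples, not as a ranking. Of the members' windows with the marked motif, 6 overlap no annotated gene, their own included; these are 5 of them, and the other is a window of Tekt2, which has several. A window of Dnah11, without the motif, is shown beside them. Each holds the 250 bases before the gene's start in RefSeq on build GRCm38.p6, written 5′ to 3′ on the strand of the gene. Capitals mark GTTGCC, an arm of the X-box that RFX factors bind, which was searched on both strands together with its reverse GGCAAC. Ccno lies at chr13:112987552-112987801 on the plus strand, Rfx2 at chr17:56831009-56831258 on the minus strand, Dynlrb2 at chr8:116504765-116505014 on the plus strand, Sntn at chr14:13670626-13670875 on the plus strand, Dnah10 at chr5:124724835-124725084 on the plus strand and Dnah11 at chr12:118199044-118199293 on the minus strand.
Ccno: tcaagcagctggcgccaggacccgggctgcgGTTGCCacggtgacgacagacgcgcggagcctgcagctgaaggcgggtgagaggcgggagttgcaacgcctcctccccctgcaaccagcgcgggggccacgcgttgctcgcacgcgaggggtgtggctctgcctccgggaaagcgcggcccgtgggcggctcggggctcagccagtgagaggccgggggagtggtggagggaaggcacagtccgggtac
Rfx2: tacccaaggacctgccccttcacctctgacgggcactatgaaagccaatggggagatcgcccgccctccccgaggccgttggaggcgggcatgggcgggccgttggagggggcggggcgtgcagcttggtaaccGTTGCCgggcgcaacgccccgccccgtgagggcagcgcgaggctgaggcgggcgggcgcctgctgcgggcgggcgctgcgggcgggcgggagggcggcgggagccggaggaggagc
Dynlrb2: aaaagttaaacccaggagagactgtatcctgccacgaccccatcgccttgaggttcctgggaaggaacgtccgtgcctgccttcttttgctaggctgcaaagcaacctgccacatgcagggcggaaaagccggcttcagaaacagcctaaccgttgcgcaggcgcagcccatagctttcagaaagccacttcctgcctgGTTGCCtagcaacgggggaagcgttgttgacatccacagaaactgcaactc
Sntn: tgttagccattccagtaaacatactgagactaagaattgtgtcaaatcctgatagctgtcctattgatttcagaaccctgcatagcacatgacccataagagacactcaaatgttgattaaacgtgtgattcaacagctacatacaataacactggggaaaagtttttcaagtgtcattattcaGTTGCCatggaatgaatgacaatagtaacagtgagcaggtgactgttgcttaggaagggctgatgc
Dnah10: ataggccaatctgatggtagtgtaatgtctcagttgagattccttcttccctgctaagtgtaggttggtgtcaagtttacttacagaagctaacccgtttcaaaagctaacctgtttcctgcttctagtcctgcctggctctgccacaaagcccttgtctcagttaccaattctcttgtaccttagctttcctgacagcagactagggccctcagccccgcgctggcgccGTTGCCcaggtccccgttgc
Dnah11: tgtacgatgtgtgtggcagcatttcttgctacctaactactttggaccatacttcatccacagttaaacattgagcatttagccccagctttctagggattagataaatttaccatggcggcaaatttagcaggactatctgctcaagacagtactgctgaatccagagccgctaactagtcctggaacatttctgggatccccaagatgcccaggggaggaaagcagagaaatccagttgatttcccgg

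GTTGCC or its reverse was found in 22 of the 42 windows of members (52.4%), which belong to 21 of 38 genes with a window. Among windows of all genes it was found in 3425 of 32851 (10.4%), among other motile cilia genes in 18 of 72 (25%) and among genes of the primary cilium in 7 of 33 (21.2%). In the windows above, its first base lay at position -219 in Ccno, -116 in Rfx2, -51 in Dynlrb2, -66 in Sntn and -20 in Dnah10, counted from -1 at the base before the start. A loose spelling of the whole X-box, GTNNCC followed by 3 free bases and GNNAC, was found in 8 of 42 member windows (19%). It was found in 15 of 72 windows of other motile cilia genes (20.8%) and in 3.81% of all windows. GTAAACA, a core motif of forkhead factors such as Foxj1, was found in 3 of 42 member windows (7.14%) and in 3.17% of all. Of 10 spellings searched on both strands, GTTGCCA, which lies within matches of GTTGCC, was found in 26.2% of member windows and 3.66% of all. The other 6 were stricter or partial forms of the X-box that overlap each other. Their shares ran from 0% to 14.3% of member windows and from 0.0609% to 5.22% of all windows. Among other motile cilia genes they ran from 0% to 25%. A match describes the letters of a window and is neither a bound site nor a cause of a ratio.

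Motile cilia genes were well measured, and their ratios stayed close to 0. Of the 39 members with a probe, 32 (82.1%) gave a signal well above background in each channel of every array, called fully measured here, against 56.7% of all genes. No fully measured member was past 2-fold in its mean ratio, where 3.16% of all fully measured genes were, and neither was any of the 4 others tested. The median of the 36 mean ratios tested was -0.06, with a range of -0.55 to 0.39, and the median over all genes tested was 0.03. By sign, 23 members were lower in the DEP channel and 13 were higher, while 11767 of all 25679 genes tested were lower and 13912 higher. Among the 32 fully measured members, 21 were lower and 11 were higher.

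**Figure D1:**
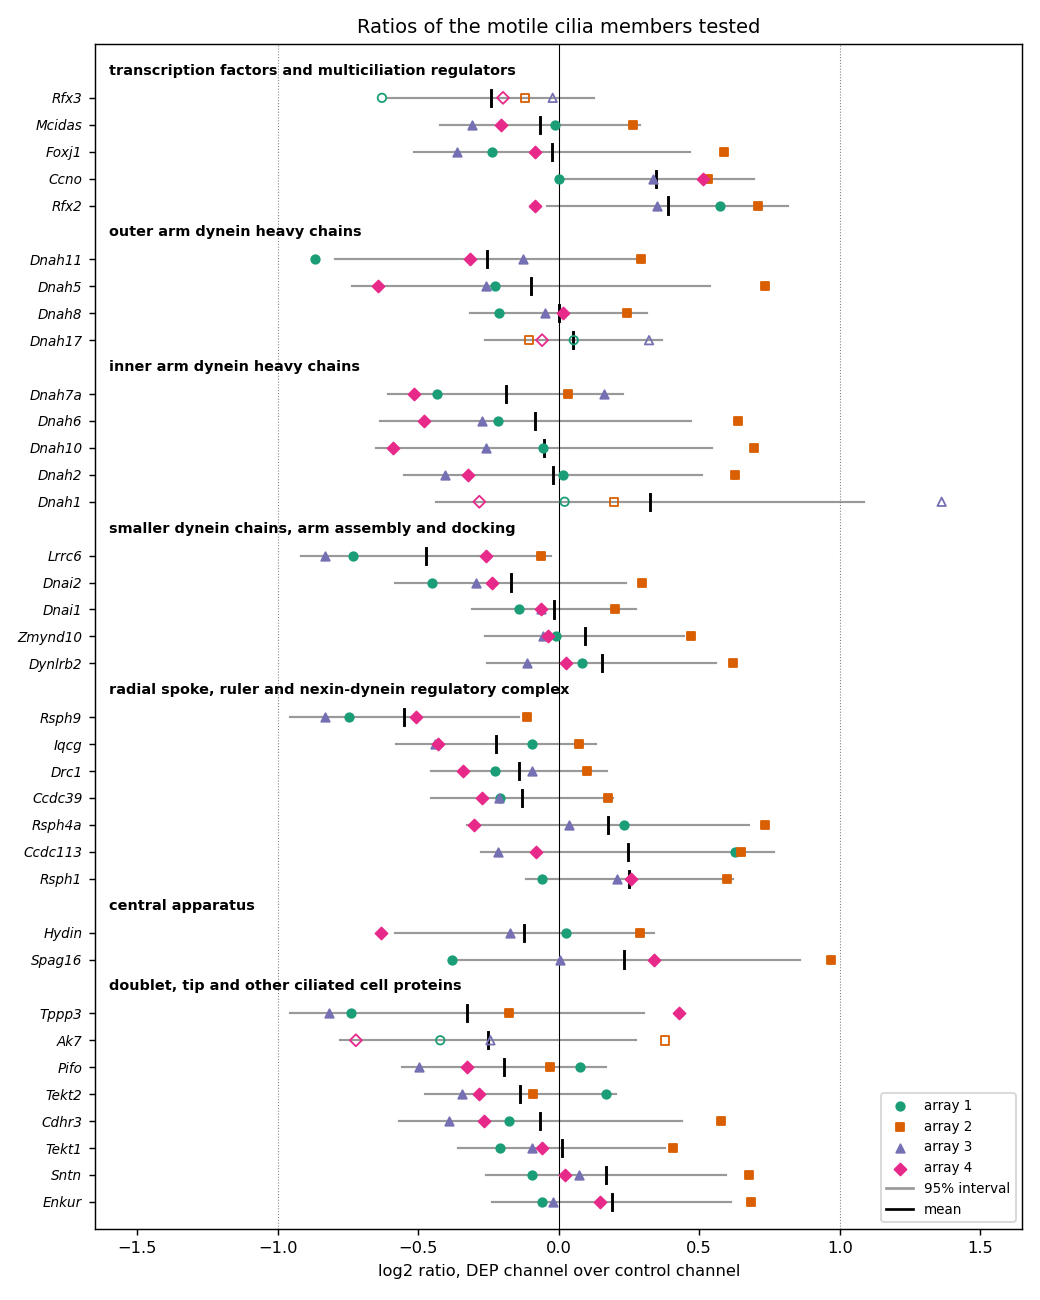
Log2 ratios of the DEP channel over the control channel for the 36 tested members, grouped by role, with 1 point per array, the mean as a black tick and the 95% interval of limma as a grey line; open points are members that were not fully measured, and dotted lines mark 2-fold. Array 2 gave the highest ratio for 28 of the 32 members with filled points, and no filled member's interval reached a dotted line.

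In limma, 2 members had an unadjusted p under 0.05, and both were lower in the DEP channel, where 8.64% of all genes tested were called lower by that rule. No member was called higher, against 10% of all genes. None passed after adjustment over all probes, as no gene did. Both of these members, Rsph9 and Lrrc6, were also below 0 on all 4 arrays, as were 10.7% of all fully measured genes. Ccno was the only fully measured member above 0 on all 4 arrays, though its ratio on array 1 was only 0.0025, against 15.4% of all fully measured genes. The share of called members thus lay near or below the background in both directions.

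The precision of these means was such that large differences would have fallen outside their intervals. For all 32 fully measured members the 95% interval of the mean ratio lay within 2-fold, and the outermost limits were -0.96 for Rsph9 and 0.86 for Spag16. This count was chosen after the data had been seen. With an ordinary test of each probe 26 of the 32 intervals lay within 2-fold, with the mean of a gene's probes 29, and with an array left out 28 to 31. The interval also holds for the brightest probe only, since that of another fully measured Dnah8 probe ran from -2.30 to 0.36. A miss of the threshold does not show that levels were equal in both groups.

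The regulators that set up the ciliated cell state showed mean ratios on both sides of 0. Foxj1, the forkhead factor required for motile cilia, had ratios of -0.24, 0.59, -0.36 and -0.08 on arrays 1 to 4, with a mean of -0.02 ± 0.42 (SD, n = 4; SE 0.19, limma adjusted p = 0.953). It was higher in the DEP channel on array 2 and lower on the other 3. Mcidas, a geminin family coactivator that starts the multiciliation program, had ratios of -0.01, 0.26, -0.31 and -0.21, with a mean of -0.07 ± 0.25 (SD, n = 4; SE 0.14, limma adjusted p = 0.81). Its signs by array were those of Foxj1. After another background correction, normexp, and centring of each array on its median in place of the dye correction, both means were above 0, at 0.14 for Foxj1 and 0.42 for Mcidas, the latter with an adjusted p of 0.0444 in limma, a setting in which 10.8% of all genes were called higher.

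Ccno, which acts downstream of Mcidas in the making of many centrioles, had ratios of 0.00, 0.53, 0.34 and 0.51. Its mean was 0.35 ± 0.25 (SD, n = 4; SE 0.14, limma unadjusted p = 0.0521, adjusted p = 0.274), and array 1 alone lay at 0. Rfx2, a factor that binds the X-box, had the highest mean of all tested members in the deposited ratios, at 0.39 ± 0.35 (SD, n = 4; SE 0.17, limma adjusted p = 0.299). Its mean was 0.16 after normexp and loess and 0.10 after normexp and median centring. Its ratios were 0.57, 0.71, 0.35 and -0.08, so that it was higher in the DEP channel on 3 of 4 arrays. The brightest probe of Rfx3, a related factor, was well above background only in the control channel of 1 array, and its ratios of -0.63, -0.12, -0.02 and -0.20 therefore rest on dim signals (mean -0.24 ± 0.27, SD, n = 4; SE 0.14, limma adjusted p = 0.404). Another Rfx3 probe, above background only in the control channel of 2 arrays, read -2.21, -1.90, -1.05 and -1.31 (mean -1.62 ± 0.53, SD, n = 4; limma unadjusted p = 0.000875, adjusted p = 0.107). The size of the Rfx3 ratio thus depended on the probe, and none was fully measured.

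Dynein heavy chains are the motors that drive the beat, and none of their means was past 2-fold. With the brightest probes, all 3 fully measured heavy chains of the outer arm and all 4 of the inner arm had means below 0, from -0.25 for Dnah11 to just under 0 for Dnah8, and none had an unadjusted p under 0.05. The shared sign depended on the scaling, since 5 of these 7 means were above 0 after normexp and median centring. Dnah5, a heavy chain of the outer arm often mutated in primary ciliary dyskinesia, had ratios of -0.23, 0.73, -0.26 and -0.64 (mean -0.10 ± 0.59, SD, n = 4; SE 0.25, limma adjusted p = 0.843). The spread of Dnah5 between arrays was thus several times its mean. Dnah11, the partner chain in the proximal part of the cilium, had ratios of -0.87, 0.29, -0.13 and -0.32 (mean -0.25 ± 0.48, SD, n = 4; SE 0.21, limma adjusted p = 0.542).

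Dnah8, a heavy chain better known from sperm tails, had ratios of -0.21, 0.24, -0.05 and 0.02 with its brightest probe (mean 0.00 ± 0.19, SD, n = 4; SE 0.12, limma adjusted p = 0.998). A further Dnah8 probe, also fully measured, read 0.06, 0.16, -2.53 and -1.57 (mean -0.97 ± 1.31, SD, n = 4; limma adjusted p = 0.368). These probes differed most on arrays 3 and 4. The third Dnah8 probe, above background in the DEP channel on 3 arrays and in the control channel on 2, read -1.55, -0.39, -0.79 and -0.26 (mean -0.75 ± 0.58, SD, n = 4; limma unadjusted p = 0.0293, adjusted p = 0.23), below the brightest probe on every array. The mean over all Dnah8 probes was -0.57. Dnah9, which forms outer arms in the distal part of the cilium, did not exceed background clearly in any channel. Dnah17, a heavy chain known from sperm, was above background in the DEP channel on 4 arrays and in the control channel on 3, with ratios between -0.11 and 0.32.

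Among heavy chains of the inner arms, Dnah6 had ratios of -0.22, 0.64, -0.27 and -0.48 (mean -0.08 ± 0.49, SD, n = 4; SE 0.21, limma adjusted p = 0.851). Dnah2 had ratios of 0.02, 0.63, -0.41 and -0.32 (mean -0.02 ± 0.47, SD, n = 4; SE 0.21, limma adjusted p = 0.961). Both motors were highest on array 2 and at or below 0.02 elsewhere. Dnah10 ranged from -0.59 on array 4 to 0.69 on array 2, and Dnah7a from -0.51 on array 4 to 0.16 on array 3. Another Dnah7a probe, above background only in the DEP channel of 3 arrays, read between 0.19 and 0.47 on arrays 1, 3 and 4 and higher on array 2 (mean 0.54 ± 0.39, SD, n = 4; limma unadjusted p = 0.0318, adjusted p = 0.236), so that the sign for Dnah7a depended on the probe. Probes of Dnah7a may also bind transcripts of the near-identical Dnah7b, so its value is uncertain. Dnah1 was well above background in the DEP channel on 1 array and in the control channel on none, and its ratios ran from -0.28 to 1.36.

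Smaller dynein subunits and the proteins that assemble and dock the arms included 1 of the 2 members with an unadjusted p under 0.05. Lrrc6, a cytoplasmic factor that preassembles dynein arms, had ratios of -0.73, -0.06, -0.83 and -0.26 (mean -0.47 ± 0.37, SD, n = 4; SE 0.17, limma unadjusted p = 0.0415, adjusted p = 0.255). After normexp and loess its mean was -0.15, with an unadjusted p of 0.125 in limma. Its processed signals were 34.9, 62.7, 38.0 and 66.1 in the DEP channel and 58.0, 65.6, 67.7 and 79.1 in the control channel, so that the DEP signal was the lower of the pair on every array and the groups overlapped between arrays. Dynlrb2, a light chain of the roadblock type, had ratios of 0.08, 0.62, -0.11 and 0.02 (mean 0.15 ± 0.32, SD, n = 4; SE 0.16, limma adjusted p = 0.619). Dnai1, an intermediate chain of the outer arm, had ratios of -0.14, 0.20, -0.06 and -0.06 (mean -0.02 ± 0.15, SD, n = 4; SE 0.11, limma adjusted p = 0.945). Dnai2, the other intermediate chain, ranged from -0.45 on array 1 to 0.30 on array 2. Zmynd10, which works with Lrrc6 in arm assembly, had a mean of 0.09 ± 0.25 (SD, n = 4), with ratios of -0.01, 0.47, -0.06 and -0.04, so that it was above 0 on array 2 alone.

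Radial spoke genes did not share a sign. Rsph9, a protein of the spoke head, had the lowest mean of all members by the brightest probe in the deposited ratios, with ratios of -0.75, -0.11, -0.83 and -0.51 (mean -0.55 ± 0.32, SD, n = 4; SE 0.16, limma unadjusted p = 0.018, adjusted p = 0.199). After normexp and median centring its mean was -0.20, with an unadjusted p of 0.0985 in limma. Its processed signals were 1222, 2211, 1532 and 2394 in the DEP channel and 2048, 2388, 2724 and 3408 in the control channel. The DEP signal was thus the lower of the pair on every array, while its highest values exceeded the lowest control signal. Rsph1, another spoke head protein, had ratios of -0.06, 0.60, 0.21 and 0.26 (mean 0.25 ± 0.27, SD, n = 4; SE 0.14, limma adjusted p = 0.393). A further Rsph1 probe, equally above background, had a mean of -0.10 ± 0.24 (SD, n = 4), so that the sign for Rsph1 depended on the probe. Rsph4a, the third spoke head gene measured, had a mean of 0.18 ± 0.43 with its brightest probe and of 0.39 ± 0.43 with another (SD, n = 4 each).

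Genes of the molecular ruler and of the nexin-dynein regulatory complex had no unadjusted p under 0.05. Iqcg, a subunit of that complex, had ratios of -0.09, 0.07, -0.44 and -0.43 (mean -0.22 ± 0.25, SD, n = 4; SE 0.14, limma adjusted p = 0.425). Ccdc113, a protein of cilia and centriolar satellites, had ratios of 0.63, 0.65, -0.21 and -0.08 (mean 0.25 ± 0.46, SD, n = 4; SE 0.20, limma adjusted p = 0.542). The ratios of Ccdc113 were thus positive on arrays 1 and 2 and negative on arrays 3 and 4. Drc1, a core subunit of the complex, had a mean of -0.14 ± 0.19 (SD, n = 4), and Ccdc39, a part of the ruler that sets the spacing of spokes and arms, had a mean of -0.13 ± 0.21 (SD, n = 4).

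The central apparatus was measured through 2 of the 4 genes listed for it. Hydin, a giant protein of a projection of the central pair, had ratios of 0.02, 0.29, -0.17 and -0.63 (mean -0.12 ± 0.39, SD, n = 4; SE 0.18, limma adjusted p = 0.727). Its other probe exceeded background clearly in no channel and had a ratio on 3 arrays, with a mean of -1.80 ± 0.31 (SD, n = 3; limma unadjusted p = 0.000558, adjusted p = 0.105), and the mean over both probes was -0.73. Spag16, a scaffold of the central pair, had the wider span of the pair, with ratios of -0.38, 0.97, 0.00 and 0.34 (mean 0.23 ± 0.57, SD, n = 4; SE 0.24, limma adjusted p = 0.622). On array 2 its processed signal was 149.9 in the DEP channel and 76.6 in the control channel. Neither Spag6 nor Spag17 exceeded background clearly in any channel, and the probes of Spag6 target a gene with a near-identical copy.

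Proteins of the doublets, of the tip and of the ciliated cell surface again lay on both sides of 0. Tppp3, a tubulin-binding protein used as a marker of ciliated cells, had ratios of -0.74, -0.18, -0.82 and 0.43 (mean -0.33 ± 0.58, SD, n = 4; SE 0.24, limma adjusted p = 0.503). It was the only tested member with its highest ratio on array 4. Tekt1, a tektin inside the doublet wall, had ratios of -0.21, 0.41, -0.10 and -0.06 (mean 0.01 ± 0.27, SD, n = 4; SE 0.14, limma adjusted p = 0.973), and its other probe had a mean of -0.14 ± 0.30 (SD, n = 4). The means of Tekt2, Pifo and Cdhr3 were -0.14, -0.19 and -0.06, and those of Sntn, a protein of the ciliary tip, and Enkur were 0.17 and 0.19. The other Pifo probe, which exceeded background clearly in no channel, read -1.34, -1.11, -1.05 and -1.45 (mean -1.24 ± 0.19, SD, n = 4; limma unadjusted p = 0.000162, adjusted p = 0.0922). Ak7, an adenylate kinase of cilia, was above background in the DEP channel on 3 arrays and in the control channel on 4, with ratios between -0.72 and 0.38.

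A single array carried most of the shared variation in the ratios. The median ratio of the 32 fully measured members was -0.12 on array 1, 0.44 on array 2, -0.19 on array 3 and -0.25 on array 4, while the median of all fully measured genes was -0.01, 0.08, 0.01 and 0.03. By array, 9, 27, 7 and 8 of the 32 members were above 0. Array 2 gave the highest of the 4 ratios for 28 of the 32 members, against 22.4% of all fully measured genes. The exceptions were Dnah7a, Tekt2, Pifo and Tppp3. Without array 2, the median over tested members was -0.22, and 29 members had a mean below 0 and 7 above. These counts are descriptions, since the members of 1 array share their extracts.

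**Figure D2:**
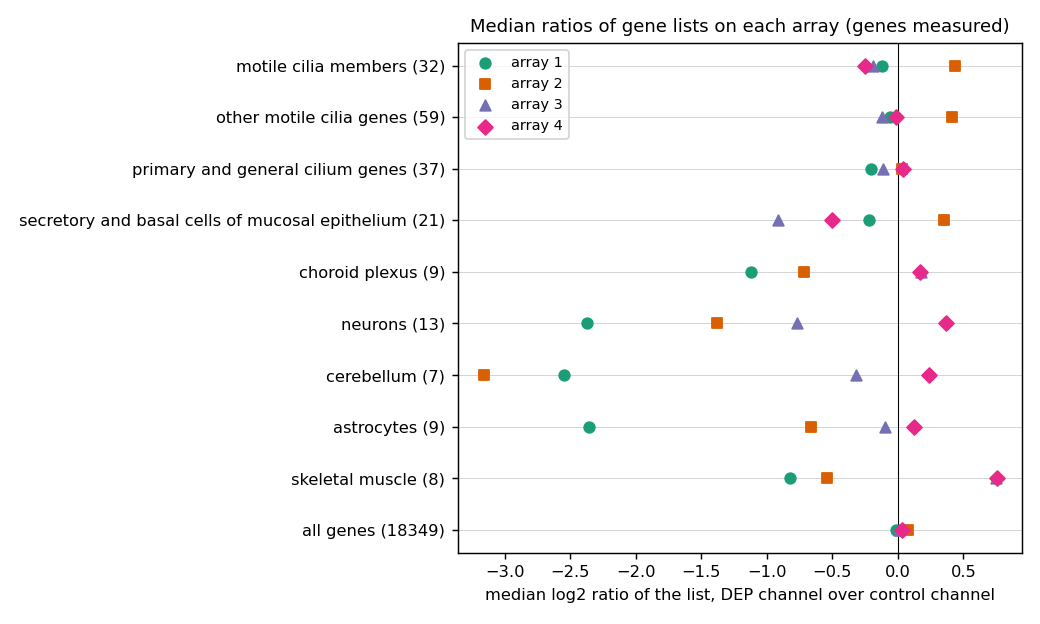
Median log2 ratio of the DEP channel over the control channel for each gene list on each array, over fully measured genes, with their number in brackets. On array 2 the medians of the motile cilia members and of other motile cilia genes were 0.44 and 0.41, while that of primary cilium genes was 0.03 and that of neurons was -1.38.

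The signals of the separate channels showed a larger difference between arrays than between exposed and control ears. After quantile normalization of the mean signals between arrays, the median deviation of the 32 members from their own mean over the 8 channels was -0.81 in the DEP channel and -0.59 in the control channel of array 1. On array 2 these medians were 0.35 and -0.02, on array 3 -0.08 and 0.09, and on array 4 0.38 and 0.59. The medians of all genes lay within 0.05 of 0 in each channel. Relative to all genes, array 1 thus held the least motile cilia signal in both of its extracts and array 4 the most. In both channels at once, 29 of the 32 members (90.6%) were lowest on array 1, compared with 8.79% of all genes.

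**Figure D3:**
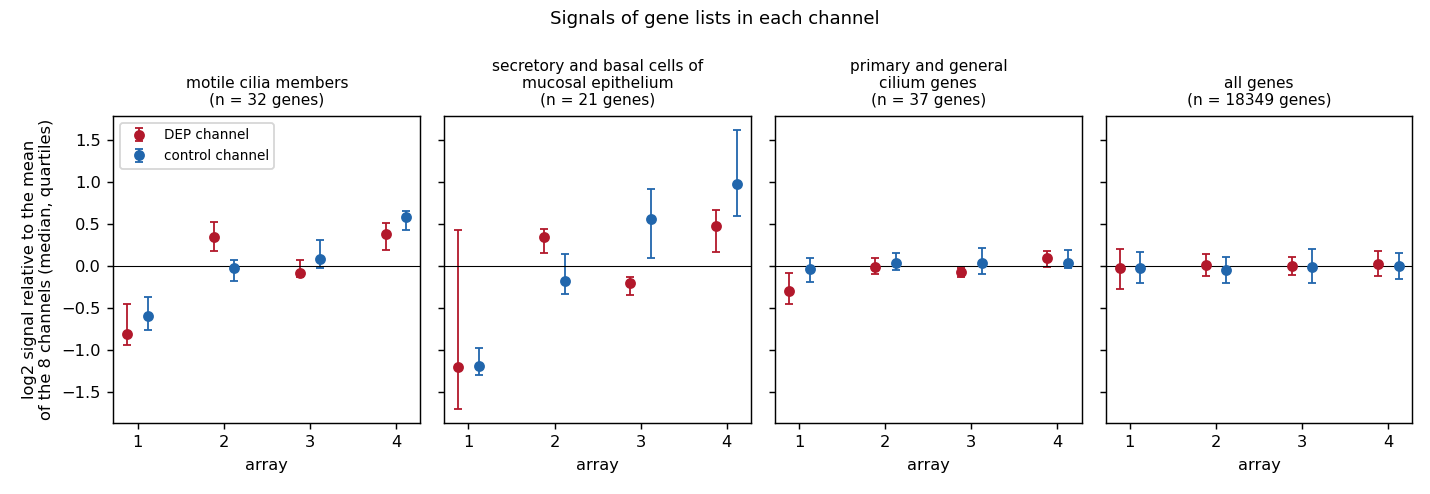
Log2 signal in each channel of each array as the deviation from the gene's mean over the 8 channels, shown as the median with the quartiles over the genes of each list. For motile cilia members both channels of array 1 lay lowest, at -0.81 and -0.59, and on array 2 the DEP channel lay above the control channel, at 0.35 against -0.02.

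The members that did not follow this pattern were Mcidas and Rfx2, and Tppp3 in the control channel. Mcidas deviated by -0.06, -0.40, 0.26 and 0.07 in the DEP channel and by -0.05, -0.66, 0.56 and 0.28 in the control channel, so that it was lowest on array 2. Foxj1, which acts after Mcidas in the same cells, deviated by -0.82, 0.54, -0.25 and 0.48 in the DEP channel and by -0.59, -0.05, 0.12 and 0.57 in the control channel. The order of the arrays for the Mcidas probe therefore differed from that for Foxj1. That probe was also far brighter. Its geometric mean processed signals were 9662 in the DEP channel and 10118 in the control channel, against 654 and 665 for Foxj1. Whether the probe reads Mcidas transcripts alone was not tested. Rfx2 deviated by 0.41, 0.55, -0.08 and -0.10 in the DEP channel and by between -0.43 and -0.02 in the control channel. Structural genes such as Sntn spanned 1.80 in the DEP channel and 1.66 in the control channel.

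Other genes of motile cilia, which were listed separately, also had their highest median on array 2, but more of their means lay above 0 than below. Of 80 such genes 71 had a probe, 68 were tested and 59 were fully measured. Their mean ratios had a median of 0.07, with 22 below 0 and 46 above, and their medians by array were -0.06, 0.41, -0.12 and -0.01. Array 2 gave the highest ratio for 44 of the 59. An unadjusted p under 0.05 was found for 2 of them in limma, both higher, where 10% of all genes tested were called higher, and for none after adjustment. These were Cfap70, an axonemal protein, with ratios of 0.58, 0.74, 0.14 and 0.15 (mean 0.40 ± 0.30, SD, n = 4; limma adjusted p = 0.263), and Cfap206, a protein of the radial spoke base that was not fully measured, with 0.94, 0.86, 0.10 and 1.55 (mean 0.86 ± 0.59, SD, n = 4; limma adjusted p = 0.201).

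The lowest and highest fully measured genes among them showed wide spreads between arrays. Spef2, which is needed for sperm tails and cilia, had ratios of -4.16, -4.25, -0.43 and 0.42 (mean -2.10 ± 2.45, SD, n = 4; SE 0.96, limma adjusted p = 0.314). Cfap57 had ratios of 2.64, 0.60, 0.60 and -0.99 (mean 0.71 ± 1.49, SD, n = 4; SE 0.59, limma adjusted p = 0.54), and Spag1, a dynein assembly factor, 2.18, 0.16, 1.21 and -0.99 (mean 0.64 ± 1.36, SD, n = 4; SE 0.54, limma adjusted p = 0.55). The means of Trp73, a transcription factor upstream of Foxj1, and of Cfap44 and Cfap74 were 0.47, -0.24 and -0.28. The large ratios of Spef2, Cfap57 and Spag1 thus came from single arrays or pairs of arrays.

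Genes of the primary cilium and of intraflagellar transport, which most cells express, did not have the same order of arrays. The 37 fully measured ones had median ratios of -0.21, 0.03, -0.11 and 0.04, and array 2 gave the highest ratio for 9 of them. In limma, 3 of 38 were lower and 2 were higher at an unadjusted p under 0.05, against 8.64% and 10% of all genes tested, and none passed after adjustment. Their channel medians on array 1 were -0.30 for DEP and -0.03 for control, and 12 of the 37 were lowest there in both channels.

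Markers of other cells in the extracts also differed between arrays. The 21 fully measured genes of secretory and basal epithelial cells had median ratios of -0.22, 0.35, -0.91 and -0.50, and array 2 gave the highest ratio for 15 of them. Their channel medians on array 1 were -1.20 for DEP and -1.19 for control. The list was split in the DEP channel, where the upper quartile was 0.43 and 6 of the 21 genes lay above 0. In both channels at once, 13 of the 21 (61.9%) were lowest on array 1, against 90.6% of the motile cilia members. Neuronal genes had median ratios of -2.37, -1.38, -0.77 and 0.36 (13 genes), cerebellar genes -2.55, -3.16, -0.32 and 0.24 (7 genes) and astrocyte genes -2.36, -0.66, -0.10 and 0.13 (9 genes). Choroid plexus genes, which mark a ciliated epithelium of the brain, had -1.12, -0.72, 0.18 and 0.17 (9 genes), and skeletal muscle genes -0.82, -0.54, 0.75 and 0.76 (8 genes). The cerebellar medians and the ratios of Spef2 had the same order of arrays. The part of brain tissue, of epithelial content or of muscle in the ratios of motile cilia genes was not tested. Genes of hair cells, and of bone and cartilage, had medians of the mean ratio of 0.20 (5 genes) and 0.03 (8 genes). Their medians by array were -0.08, 0.46, 0.15 and -0.21 for hair cells and -0.27, 0.27, 0.01 and 0.15 for bone and cartilage. Both were highest on array 2, as for the motile cilia members.

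Members with and without the motif in their promoter windows had similar median ratios. The 18 fully measured members with GTTGCC in a window had a median mean ratio of -0.06, and the 9 with a window but without it had -0.08. Array 2 gave the highest ratio for 15 of those 18 and for all 9 of the others. Mean ratios ran from -0.22 to 0.39 among the former and from -0.55 to 0.09 among the latter.

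The correction of background and dyes changed the sign of several members. With normexp background correction and loess, the median over the 36 tested members was -0.06, and 24 were lower and 12 higher. With normexp and centring of each array on its median, without loess, the median was 0.10, and 23 were higher and 13 lower. That setting also moved the median of all genes from 0.03 to 0.12. In that setting 12 of the 32 fully measured members turned from below 0 to above 0, and none turned the other way. At an unadjusted p under 0.05 it called 8 members, all higher, where 28.3% of all genes tested were called higher and 8.84% lower, and Rsph9 and Lrrc6 were not among them. At an adjusted p under 0.05 it called 2988 genes, and 4 of the 36 members were called higher, against the 10.8% of all genes. These were Ccno, Mcidas, Dynlrb2 and Rsph1, with mean ratios of 0.53, 0.42, 0.54 and 0.56, and a share near that of all genes is not a result about the members. Rsph9 read -0.56 with normexp and loess and -0.20 with median centring, and Lrrc6 read -0.15 and -0.20.

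**Figure D4:**
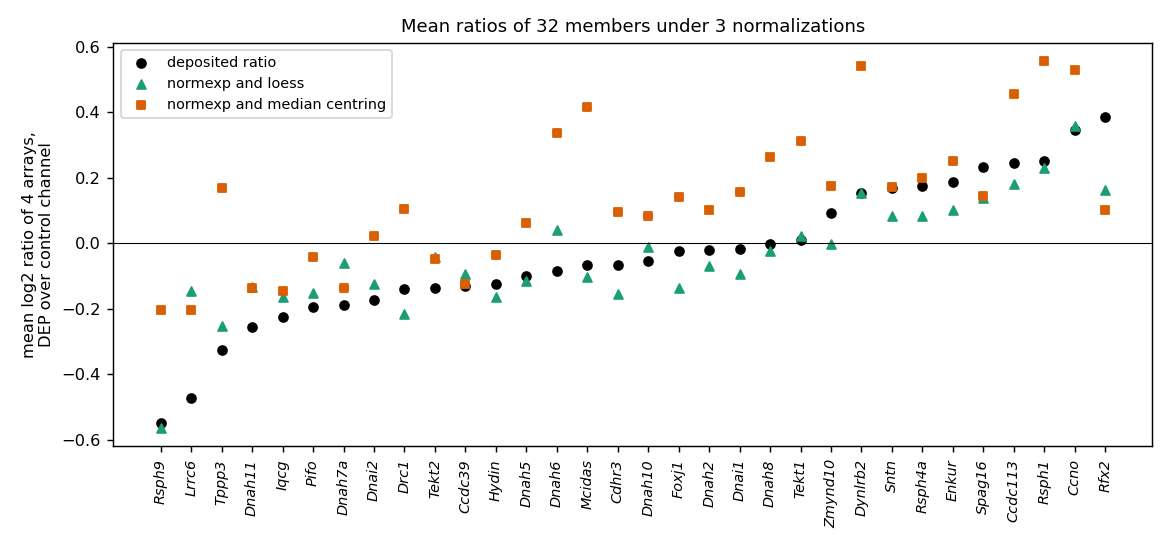
Mean log2 ratio over 4 arrays of the 32 fully measured members, ordered by the deposited ratio, with the same mean after normexp and loess and after normexp and median centring. The squares of median centring lie above the circles for most members, with a median of 0.12 against -0.06, while Rsph9 stays below 0 under all 3.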

How the data were processed

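Total RNA from ears was labelled and hybridised on 4 two-colour Agilent arrays. Per the submitters' processing notes, Agilent Feature Extraction 10.10.1.1 read the spots. The authors deposited processed intensities, which are background-subtracted and corrected for the dyes within each array, and a log10 ratio of Cy5 over Cy3 processed signal per spot. A deposited table of log10 ratios holds the same ratios rounded and served as an alternative. All 4 arrays formed 1 group, and every column of values had a sample (0 without).

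The log10 ratios were converted to log2. Control spots, spots flagged as outliers (164 to 274 per array) and spots without a ratio (6179 to 8558 of 43020) were left out, saturated spots were kept, and spots of a probe were averaged. The unnamed probes were named through their target accession with the RefSeq table of GRCm38.p6, which named 27649 of 39429 probes for 20967 genes. Other probes kept their accession or identifier, each counted as a gene. Dnai1 and Dnai2 were matched by the names Dnaic1 and Dnaic2. A gene was read by the probe with the highest mean processed signal. Probes with a ratio on at least 3 arrays (31577) were fitted with an intercept in limma 3.58.1 under R 4.3.3 (lmFit and eBayes, prior degrees of freedom 1.98), two-sided against 0, adjusted by Benjamini and Hochberg's method over all these probes, which read 25679 genes. Intervals are at 95%. A gene counted as fully measured when its probe exceeded background clearly (the image software's call) in each channel of every array. The fit was tested on simulated ratios. The number of arrays limits the precision.

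Alternatives were normexp (offset 50, on median spot signals, as the files hold no mean signals) with loess or with median centring, the deposited table, stricter filters on dim probes, outlier spots kept, an intensity trend, an ordinary test, the mean of a gene's probes, and each array left out. Channel signals were compared between arrays after quantile normalization of the mean of both channels (Aquantile). Per-array values are printed for all regulators, for the 2 members of each other role with the highest mean signal among those fully measured, and for the 5 lowest and 5 highest means, and of the other motile cilia genes the 3 lowest and the 3 highest are named. Further members are named by their ranges or means. The members, the lists and the motifs were chosen with earlier results of these data known. Promoter windows come from RefSeq; protein sequences were not used here. Tables and plots used pandas 2.3.3, matplotlib 3.10.9 and numpy 2.4.6 under Python 3.11.15.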

Additional observations from a re-analysis of the deposited data

Results flagged for a closer look

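In 2 of 38 sets of 4 ratios examined for a value apart from the rest, 1 array lay farther from the others than Dixon's critical value at 95% allows, and chance alone gives about 1 in 20 such sets. For Zmynd10 array 2 gave 0.47, while the other 3 arrays gave ratios from -0.06 to -0.01 (gap over range 0.911). For Ccdc39, array 2 gave 0.18 and the others from -0.27 to -0.21 (gap over range 0.859). Both values lay on the array with the highest ratio for most members.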

How the results depend on the processing

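No member had a mean past 2-fold under any of the 13 alternatives. Members with an unadjusted p under 0.05 numbered 2, both lower, and 8 with normexp and median centring, all higher, where 9527 of 25679 genes had such a p. The count was 1 lower and 1 higher with normexp and loess or with the intensity trend, and 1 lower with the ordinary test. With either filter on dim probes it was 2 lower and 1 higher. The mean of a gene's probes, where dim second probes enter, gave 7, all lower, where 4705 of 25694 genes had such a p. Leaving out an array gave 0 to 3. After adjustment 0 became 4 with median centring, where 2988 genes passed. For other motile cilia genes the count of 2 became 25 of 68 with median centring, 1 with the ordinary test and 4 with the mean of probes, and leaving out an array gave 0 to 6. The members' median ranged from -0.22 without array 2 to 0.02 without array 4, and was 0.10 with median centring. With median centring 12 fully measured members turned positive, among them Dnah10 (0.085), Cdhr3 (0.096), Dnai2 (0.023) and Drc1 (0.11), and of those with values by array Foxj1 (0.14), Mcidas (0.42), Tppp3 (0.17), Dnah6 (0.34), Dnah2 (0.10), Dnah8 (0.26), Dnah5 (0.063) and Dnai1 (0.16). Dnah6 read 0.040 with normexp and loess, and Tekt1 -0.065 with the mean of its probes. Leaving out each array in turn moved the sign of Foxj1 (-0.23 to 0.089), Mcidas (-0.18 to 0.014), Hydin (-0.26 to 0.047), Spag16 (-0.013 to 0.44), Tekt1 (-0.12 to 0.083), Dnah6 (-0.32 to 0.049), Dnah2 (-0.24 to 0.11), Dnah8 (-0.082 to 0.071), Dnah5 (-0.38 to 0.081), Dynlrb2 (-0.0022 to 0.24) and Dnai1 (-0.089 to 0.025). It moved others by over 1.5 times without a turn of sign: Dnah11 (-0.44 to -0.050), Tppp3 (-0.58 to -0.16), Rfx3 (-0.32 to -0.11), Ccdc113 (0.11 to 0.40) and Rsph1 (0.13 to 0.35). The cause of these changes was not tested. The deposited table, kept outlier spots and the intensity trend reversed none of the 21 named members, and neither did the filters on dim probes for the 20 they kept. The test was paired by array, since each ratio compares both channels of 1 array, and all arrays form 1 group. Signal near background limits Rfx3, Dnah1, Ak7 and Dnah17, whose ratios are not bounds.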
